A study of Mus musculus with 12 samples.

Results

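Liver organoids in which Yap had first been switched on and then off were compared with control arrays on which macrophage transcripts and the P450 gene Cyp2e1 were high. The 6 arrays come from a series of 12 Affymetrix MoGene 1.0 ST arrays of C57Bl6 mouse material, read as total RNA, with 3 arrays in each of 4 labelled groups. The first 3 are organoids exposed to Yap for 3 weeks in the liver and then cultured for 2 weeks without doxycycline, which leaves Yap off. They are called Yap-off organoids. The other 3 are the arrays with a control label on which Lyz2, a lysozyme of macrophages, exceeded 9 on the log2 scale of intensity. They are called Lyz2-high controls here. Their labels are mixed. One is labelled hepatocyte 2, from uninduced YFP-positive liver cells sorted by FACS, and the others are labelled wild-type organoid 1 and 3, grown for 2 weeks. The other 3 arrays with a control label (hepatocyte 1 and 3, wild-type organoid 2) are called Lyz2-low controls and served for reference only, as did 3 organoids that kept Yap on in culture. The promoter or cell type that drives Yap, the reporter behind YFP, and the number, sex and age of the animals are not given in the sources used here. Nothing in the labels ties a replicate to an animal of its own, and the p-values cover only the variation among these arrays, which can be technical.

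YAP is a transcriptional coactivator that binds DNA through TEAD factors, and the kinases of the Hippo pathway keep it out of the nucleus. In the adult liver it is most active in bile duct cells, and its activation in hepatocytes is known to bring on ductal and progenitor genes. Hepatocytes secrete most plasma proteins, whereas Kupffer cells, the resident macrophages of the liver, and sinusoidal endothelial cells are separate lineages that share the tissue with them.

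The control labels did not match the marker genes on the arrays: macrophage transcripts were high under the hepatocyte label and under the organoid label. Below, control values are given in the order hepatocyte 2, wild-type organoid 1, wild-type organoid 3, and Yap-off values in the order of replicates 1 to 3. Lyz2 chose the arrays, and its values are a description. It stood at 12.04, 11.56 and 12.16 in the Lyz2-high controls, and the values nearest below the threshold were 6.30 in hepatocyte 3 and 6.19 in wild-type organoid 2. The Yap-off organoids lay at 5.50, 5.58 and 5.78, close to the excluded controls. Cyp2e1, a cytochrome P450 of hepatocytes around the central vein, was at 10.14, 10.03 and 9.90 in the same controls and at 5.58, 3.89 and 4.93 in the Yap-off organoids. Alb, the main plasma protein of hepatocytes, was high on all 6 arrays, at 11.53, 12.23 and 12.01 in the controls and at 12.26, 12.42 and 12.54 in the Yap-off organoids. Some other hepatocyte genes, such as Glul and Cyp2c50 (values below), followed Cyp2e1, and others did not. The summed linear intensity of 22 P450 and drug-metabolism genes was 3280, 4790 and 5850 in the Lyz2-high controls. It was 7280 to 7450 in the Lyz2-low controls and 11200 to 12300 in the Yap-off organoids. The median log2 level of the same list ordered the controls the other way. It was 6, 7.09 and 6.21 in the Lyz2-high controls and 3.82 to 4.93 in the Lyz2-low controls. In the Yap-off organoids it was 7.03, 7.76 and 8.11.

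**Figure D1:**
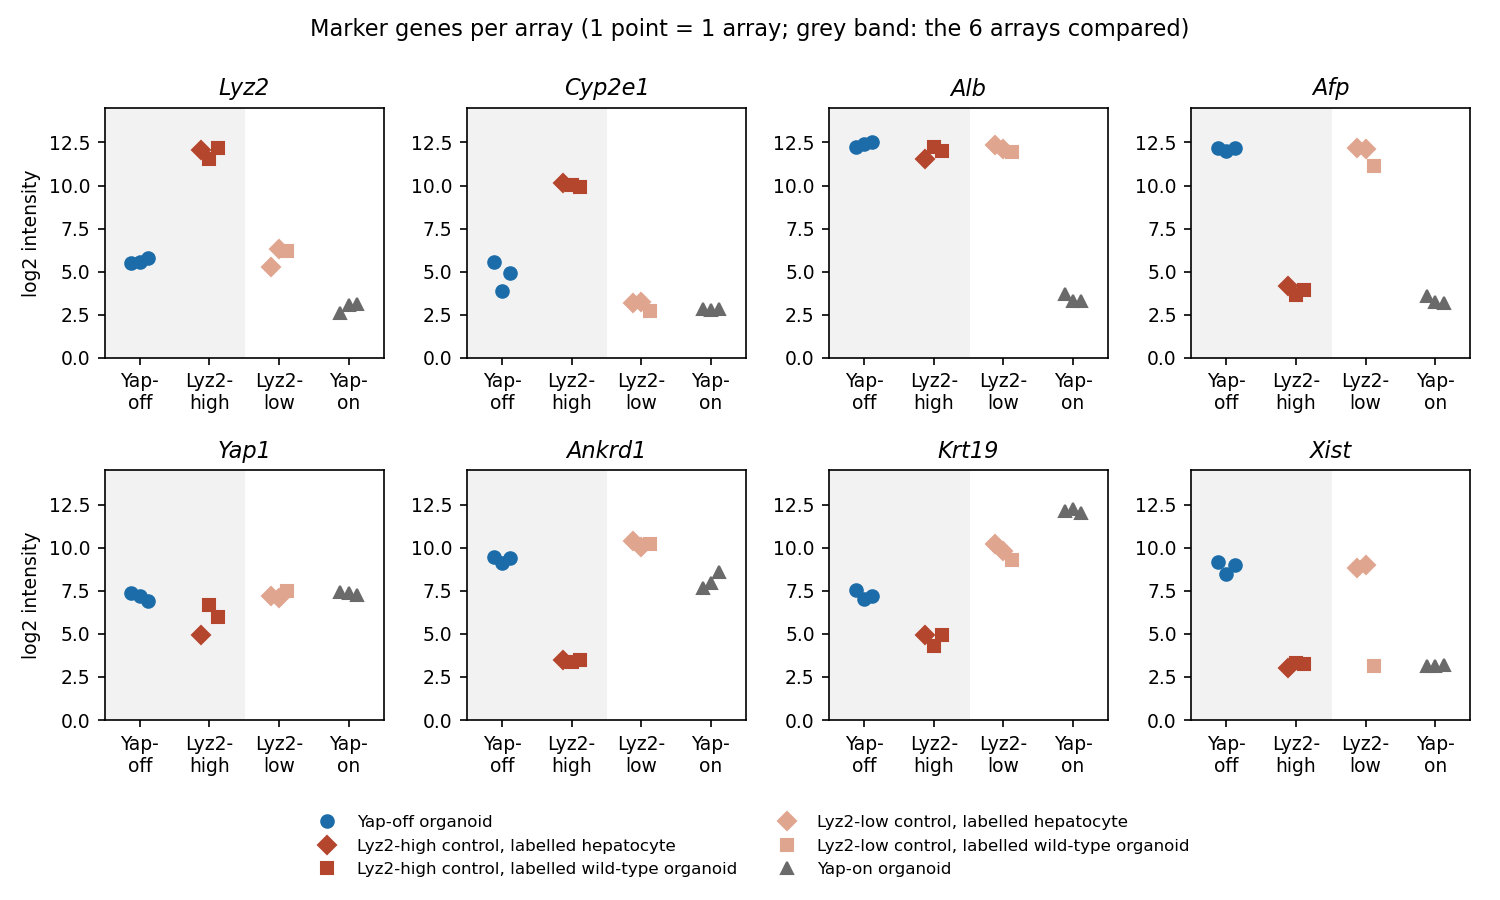
Log2 intensity (y axis) of 8 genes on all 12 arrays (1 point is 1 array), by group on the x axis: Yap-off organoids, Lyz2-high controls, Lyz2-low controls and Yap-on organoids, with diamonds for arrays labelled hepatocyte and squares for wild-type organoid. Alb is above 11 in every group but the Yap-on organoids, Afp is below 5 in the Lyz2-high controls and the Yap-on organoids, Ankrd1 below 4 in the Lyz2-high controls alone, and Xist is high in the 3 Yap-off organoids and below 4 in the Lyz2-high controls.

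Across the 19937 genes, the Lyz2-high controls correlated with each other at r = 0.936 to 0.970, and the Yap-off organoids at 0.975 to 0.983. Between these groups r was 0.807 to 0.832, whereas Yap-off organoids and Lyz2-low controls reached 0.934 to 0.952. These values run over genes, which are no replicates, and serve as a description. The 3 Yap-off organoids and the 3 Lyz2-high controls also differed in sex-linked transcripts. Xist, the RNA of the inactive X chromosome, stood at 9.20, 8.49 and 8.98 in the Yap-off organoids and at 3.00, 3.30 and 3.26 in the controls. The Y-linked gene Eif2s3y ran the other way, at 2.85, 2.63 and 2.50 against 6.81, 6.19 and 7.11, and so did Uty (2.57, 2.47, 2.56 against 5.81, 5.42, 6.09) and Kdm5d (3.46, 3.33, 3.76 against 5.22, 5.37, 6.08). The other 2 Y-linked genes measured, Usp9y and Zfy1, lay at or below 2.90 on all 6 arrays. Each difference between these 6 arrays therefore runs along with sex-linked expression, and its part in the results was not tested. Among the other controls, hepatocyte 1 and 3 were like the Yap-off organoids in Xist (8.82 and 9.0) and Eif2s3y (2.78 and 2.88), and wild-type organoid 2 was like the Lyz2-high controls (3.14 and 7.05). The 6 arrays with a control label thus hold both kinds.

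Of 19937 genes, 3757 were called between the groups (limma, adjusted p under 0.05), which is 18.8%. Of these, 2090 (10.5%) were higher and 1667 (8.36%) lower in the Yap-off organoids. Because the controls were chosen by a measured gene, the genes were sorted by whether they carry the same signal. A gene is said to split the controls when its 3 Lyz2-high arrays all lie above, or all below, the 3 Lyz2-low arrays and the means differ by at least 1 on the log2 scale. This held for 3563 genes, 1483 of them with the Lyz2-high arrays on top, and 66.0% of these were called (36.1% higher and 29.8% lower). Their differences repeat the choice of arrays and are given below with values and no p. Of the 16374 genes that do not split the controls, 1406 (8.59%) were called, 802 (4.90%) higher and 604 (3.69%) lower, and tests are given for these alone. That number fell to 715 without wild-type organoid 3, to 688 without Yap-off replicate 2 and to 684 without Yap-off replicate 3, and rose to 2012 without hepatocyte 2. Against all 6 arrays with a control label, a comparison that uses no measured value, 183 genes were called (0.918%), 115 higher (0.577%) and 68 lower (0.341%). Of 124 list members and named genes that do not split the controls and were called, all 124 had the same direction against all 6 and 36 were called there as well. The 6 include the 3 Lyz2-high controls, and genes that split the controls were left out. Agreement in direction was thus largely fixed beforehand and is no support. The adjusted p against all 6 stands beside the adjusted p of each call below. The median log2 difference over all genes was 0.051. Without overlap, 20.8% of all genes lay above the Lyz2-high controls and 15% below, and the counts for gene lists are to be read against these shares. Counts of called list members that do not split the controls are to be read against 4.90% higher and 3.69% lower.

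**Figure D2:**
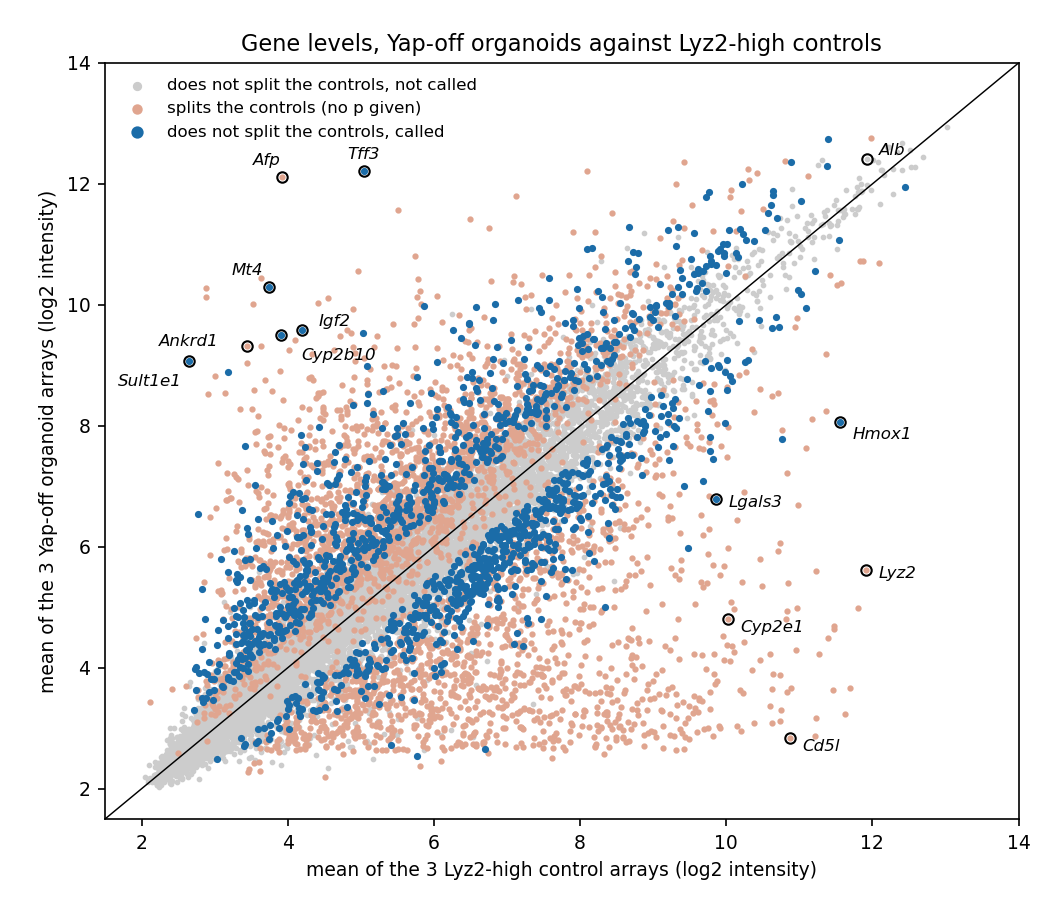
Mean log2 intensity of each gene in the 3 Lyz2-high controls (x axis) and in the 3 Yap-off organoids (y axis), 1 point per gene with the line of equal levels. Genes that split the controls are light red, called genes that do not split them are blue and the others grey; Afp and Tff3 lie far above the line, Cd5l and Lyz2 far below it, and Alb next to it.

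Sex-linked genes, among them Xist (difference 5.71) and Eif2s3y (-4.04), were left out of the choice of the largest increases and decreases. So were clone, predicted or multigene symbols. The 15 largest increases among the other genes that do not split the controls included secreted proteins, sulfotransferases and a drug-metabolizing P450. Tff3, a trefoil peptide of mucosal epithelium, was at 11.97, 12.25 and 12.41 in the Yap-off organoids and at 4.76, 5.20 and 5.15 in the Lyz2-high controls. It did not exceed 6.32 on any array with a control label, and the difference was 7.17 (SE 0.19, adjusted p = 8.8e-06 in limma, and 9.5e-05 against all 6 controls). The other trefoil genes Tff1 (4.22, 4.36, 4.48 against 4.24, 4.22, 3.99) and Tff2 (2.75, 3.13, 2.82 against 2.83, 2.96, 3.10) were low in both groups. Sult1e1, the estrogen sulfotransferase, lay at 8.84, 8.99 and 9.41 against 2.76, 2.50 and 2.68, a difference of 6.43 (SE 0.18, adjusted p = 1.2e-05, and 5.4e-07 against all 6). Cyp2b10, the P450 best known for its induction by phenobarbital, stood at 9.48, 9.71 and 9.32 against 4.17, 3.65 and 3.89, with a difference of 5.60 (SE 0.19, adjusted p = 1.9e-05, and 1.1e-05 against all 6). On these 3 genes the groups did not come near each other.

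Mt4, a metallothionein of stratified epithelium, was at 9.94, 10.13 and 10.81 against 3.65, 3.78 and 3.81 (difference 6.55, SE 0.24, adjusted p = 2.2e-05, and 0.00014 against all 6). Reln, a secreted matrix glycoprotein that stellate cells make in liver, was at 7.89, 7.62 and 8.02 against 4.10, 4.26 and 4.19 (difference 3.66, SE 0.15, adjusted p = 3e-05, and 0.00048 against all 6). It was the only called gene among the 14 of 18 stellate and fibroblast genes that do not split the controls: Col1a1 (4.30, 4.62, 4.62), Pdgfrb (3.14, 3.36, 3.62) and Des (3.59, 3.76, 3.60) overlapped the controls (adjusted p = 0.59, 0.85 and 1). Of all 18, 1 lay above the Lyz2-high controls without overlap and 4 below (median -0.05). Among those below, Hgf, Dcn and Lrat split the controls and differed by -3.69, -2.19 and -1.90. Lrat was at 3.13, 3.31 and 3.63 against 4.08, 5.55 and 6.14. Elapor1, a membrane protein of endosomes and lysosomes, differed by 3.47 (SE 0.17, adjusted p = 6.3e-05, and 1.4e-05 against all 6). Its Yap-off values lay between 6.97 and 7.10, and no control array was above 3.84. Sult1d1, a second sulfotransferase, was at 9.46, 9.66 and 9.47 against 5.52, 4.31 and 5.27, and Rdh9, of the retinol dehydrogenase family, at 7.25, 7.80 and 7.95 against 3.85, 3.58 and 2.84 (differences 4.49 and 4.24, adjusted p = 0.00023 and 0.00028, and 0.076 and 0.00043 against all 6). The growth factor Igf2 was at 9.03, 9.70 and 10.04 against 4.19, 4.51 and 3.88 (difference 5.40, SE 0.30, adjusted p = 9.2e-05). Igf2 also reached 6.87 and 8.16 in hepatocyte 1 and 3, and its adjusted p against all 6 controls was 0.093.

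The rest of the 15 largest increases were Cxcl1, Tceal5, Cxcl17, C1s1, Afm and Slc13a3. Cxcl1, a chemokine that draws neutrophils, was at 9.73, 10.07 and 10.15 against 6.94, 5.42 and 5.25 (difference 4.11, adjusted p = 0.0014, and 0.077 against all 6). The mucosal chemokine Cxcl17 was uneven among the Yap-off organoids, at 6.62, 8.58 and 8.76 against 4.93, 3.98 and 4.39 (difference 3.55, adjusted p = 0.0077, and 0.024 against all 6). Slc13a3, a sodium-coupled dicarboxylate transporter, was uneven as well, at 8.90, 7.33 and 6.70 against 4.49, 3.96 and 4.28 (difference 3.40, adjusted p = 0.0063, and 0.01 against all 6). C1s1, a protease of the complement cascade, differed by 3.46 (adjusted p = 0.00015, and 0.28 against all 6), but stood at 8.01 and 7.91 in hepatocyte 1 and 3, next to the lowest Yap-off value of 8.04. Afm, a vitamin E carrier of the albumin family, lay at 8.29, 8.96 and 8.32 against 4.37, 5.99 and 4.95 (difference 3.42, adjusted p = 0.0024, and 0.033 against all 6). For all 15 genes each Yap-off array lay above each of the 6 arrays with a control label, which held for 4.51% of all genes, and 11 of the 15 were also called against those 6. The 15 were picked among called genes that do not overlap the Lyz2-high controls and do not split the controls. The choice thus fixed much of this beforehand, and the share over all genes is no like background.

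**Figure D3:**
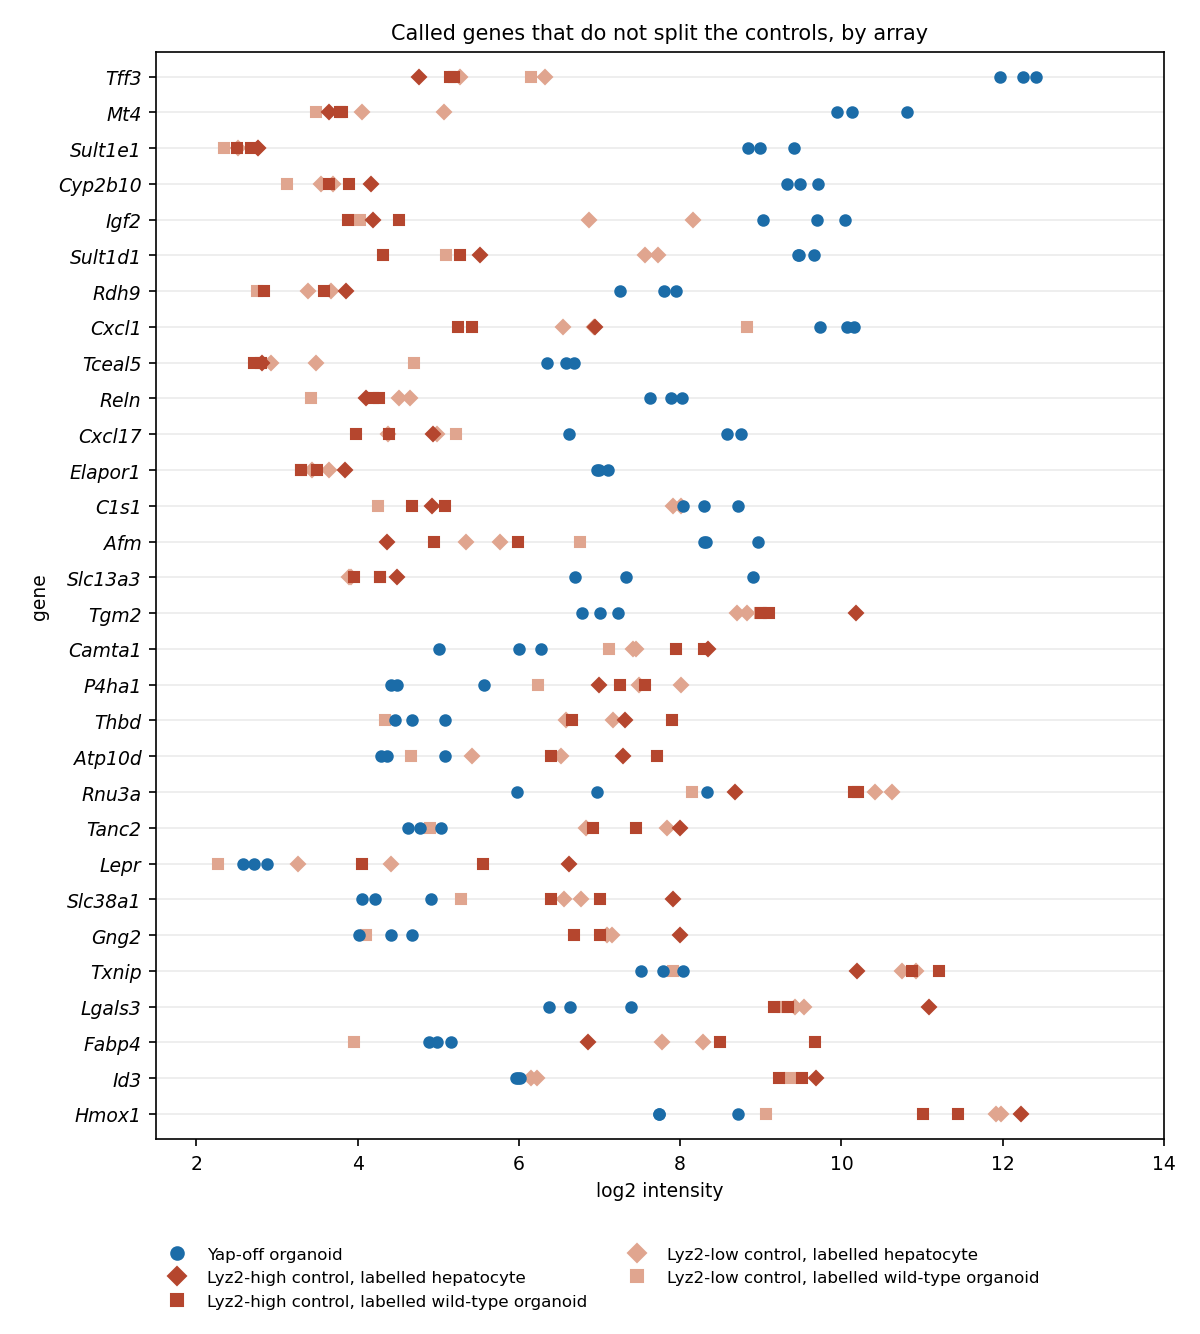
Log2 intensity (x axis) of the 15 genes with the largest increase and the 15 with the largest decrease that do not split the controls (y axis), 1 point per array: circles are Yap-off organoids, dark symbols Lyz2-high and light symbols Lyz2-low controls, with diamonds for the hepatocyte label and squares for wild-type organoid. From Tff3 to Slc13a3 the circles lie to the right of all controls, and from Tgm2 to Hmox1 they lie left of the dark symbols, while several light symbols overlap them.

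The genes with the largest decreases, chosen with the same kinds of genes left out, were less uniform across the controls. Hmox1, the heme-degrading oxygenase, was at 8.72, 7.74 and 7.74 in the Yap-off organoids against 12.23, 11.01 and 11.45 (difference -3.50, SE 0.40, adjusted p = 0.0017, and 0.072 against all 6). Heme oxygenase is abundant in Kupffer cells, yet it also stood at 11.92 and 11.98 in hepatocyte 1 and 3, whose Lyz2 is low. Id3, a target of BMP signalling that blocks basic helix-loop-helix factors, was at 5.96, 5.99 and 6.02 against 9.68, 9.51 and 9.22 (difference -3.48, SE 0.16, adjusted p = 4.3e-05, and 0.31 against all 6). Hepatocyte 1 and 3, at 6.22 and 6.15, were next to the Yap-off organoids, while wild-type organoid 2 was at 9.36. Lgals3, the lectin galectin-3, lay at 6.37, 7.39 and 6.63 against 11.09, 9.16 and 9.34 (difference -3.07, SE 0.55, adjusted p = 0.011, and 0.029 against all 6). Txnip, an inhibitor of thioredoxin, was at 7.51, 8.04 and 7.79 against 10.19, 11.21 and 10.88 (difference -2.98, adjusted p = 0.00086, and 0.14 against all 6), and wild-type organoid 2, at 7.91, fell within the Yap-off range.

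Tgm2, a protein-crosslinking transglutaminase, was at 6.78, 7.0 and 7.23 against 10.18, 9.0 and 9.10 (difference -2.42, SE 0.33, adjusted p = 0.0037, and 0.024 against all 6). P4ha1, a subunit of the collagen prolyl hydroxylase, was at 4.42, 4.49 and 5.57 against 6.99, 7.26 and 7.56 (difference -2.45, adjusted p = 0.0038, and 0.038 against all 6). Camta1, a calmodulin-binding transcription activator, differed by -2.43 (adjusted p = 0.0038, and 0.049 against all 6), at 6.28, 6.0 and 5.01 against 8.34, 8.30 and 7.95. Slc38a1, a glutamine transporter, and Thbd, the thrombomodulin of endothelium, differed by -2.71 and -2.55 (adjusted p = 0.0057 and 0.003, and 0.082 and 0.27 against all 6). Gng2, Tanc2 and Atp10d lay between -2.86 and -2.56. For Fabp4 (-3.33, adjusted p = 0.015), Lepr (-2.68, 0.024) and the small nucleolar RNA Rnu3a (-2.59, 0.041) the call was lost when wild-type organoid 3, or any of several other arrays, was left out, with adjusted p of up to 0.065, 0.093 and 0.14. Against all 6 controls their adjusted p was 0.37, 0.48 and 0.14, and the difference of Lepr was -1.63. Of the 15 decreases, 7 held against every one of the 6 controls without overlap, where 3.64% of all genes did, and 4 were called against them. These 15 were picked in the same way as the increases, so that share is no like background either.

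Most hepatocyte secretory genes were higher in the Yap-off organoids than in the Lyz2-high controls. Of 19 plasma protein genes measured, 17 lay above the controls without overlap, against 20.8% of all genes, and none below. The median difference was 1.47. Of the 11 that do not split the controls, 7 were higher, where 4.90% of such genes were. Kng1, the kininogen of plasma, was at 11.60, 11.78 and 11.95 against 10, 9.85 and 9.34 (difference 2.05, SE 0.21, adjusted p = 0.0011, and 0.17 against all 6). Fetub and Ahsg, the 2 fetuins, differed by 2.03 and 1.47 (adjusted p = 0.0039 and 0.0042, and 0.17 and 0.27 against all 6), and Trf, the iron carrier, by 0.92 (adjusted p = 0.0073, and 0.22 against all 6). With all 12 arrays in the fit Fetub and Ahsg were not called (adjusted p = 0.073 and 0.072). Against all 6 controls 1 of the 19 was called. Alb differed by 0.48 (unadjusted 95% interval -0.01 to 0.98, adjusted p = 0.17), and Ttr, which carries thyroid hormone, by 1.06 (adjusted p = 0.091).

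Complement and coagulation genes, most of them made by hepatocytes, were largely higher as well. Of 26 complement and coagulation genes, 18 lay above the Lyz2-high controls without overlap and 1 below, with a median difference of 1.32. Among the 16 that do not split the controls 13 (81.2%) were called higher, against 4.90% of all such genes. F11, a serine protease of the intrinsic pathway, was at 7.43, 6.93 and 6.93 against 4.12, 4.35 and 4.29 (difference 2.84, SE 0.18, adjusted p = 0.00016, and 0.021 against all 6). F5, the cofactor of prothrombinase, was at 8.18, 8.33 and 8.60 against 5.83, 5.79 and 5.39 (difference 2.70, SE 0.18, adjusted p = 0.00021, and 0.018 against all 6). F7, which starts the tissue factor pathway, was lower in level, at 5.91, 7.08 and 7.39 against 4.12, 4.60 and 3.89 (difference 2.59, adjusted p = 0.0061, and 0.021 against all 6). Proc, the anticoagulant protein C, and the protease inhibitors Serpind1 and Serpinf2 differed by 2.08, 2.82 and 2.62 (adjusted p = 0.002, 0.006 and 0.003, and 0.026, 0.022 and 0.049 against all 6). In all, 8 of the 26 were called against all 6 controls, against 0.577% of all genes called higher. The fibrinogen chain genes Fgb and Fgg differed by 1.17 and 1.24 (adjusted p = 0.029 and 0.016, and 0.23 and 0.084 against all 6), but both calls were lost without Yap-off replicate 2 or 3, and that of Fgb also without Yap-off replicate 1 or either wild-type organoid (adjusted p of up to 0.11 and 0.065). C6, a component of the membrane attack complex, ran against its list, at 3.05, 2.97 and 2.92 against 10.07, 8.79 and 10.23.

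Zonated and detoxifying enzymes did not move as 1 group. Among 14 zonated enzymes, 2 lay above and 6 below the controls without overlap, and the median difference was -0.13. Glul, the glutamine synthetase of central-vein hepatocytes, was lower like Cyp2e1, at 7.75, 8.52 and 7.51 against 10.85, 10.58 and 10.87. Oat, ornithine aminotransferase of the same zone, was at 6.15, 6.36 and 6.20 against 8.54, 7.73 and 8.07 (difference -1.87, SE 0.22, adjusted p = 0.002, and 0.024 against all 6). Cyp1a2, also central, was at 10.07, 9.58 and 8.78 against 6.66, 8.85 and 8.64, so that it was not low in the Yap-off organoids. Cps1, which feeds ammonia into the urea cycle around the portal vein, was at 10.92, 11.09 and 11.55 against 9.32, 9.40 and 9.94 (difference 1.64, SE 0.24, adjusted p = 0.0049, but 0.36 against all 6 and 0.25 with all 12 arrays in the fit).

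Of 22 P450 and other drug-metabolism genes, 11 lay above and 7 below without overlap, with a median of 0.84. Besides Cyp2b10, Cyp3a11 was at 10.09, 10.03 and 10.06 against 8.01, 8.16 and 8.15, and Cyp2c29 at 8.87, 7.89 and 8.32 against 6.47, 7.22 and 5.77. Both split the controls, at no more than 4.05 in the Lyz2-low arrays. Cyp2c50 ran the other way, at 3.77, 3.41 and 3.51 against 6.05, 6.63 and 6.77. Of the 19 measured for urea synthesis and amino acid catabolism, 11 lay above and none below (median 1.55). Tdo2, the first enzyme of tryptophan breakdown, differed by 2.30 (adjusted p = 0.0061, but 0.26 against all 6 and 0.14 with all 12 arrays in the fit) and Prodh2 by 1.72 (adjusted p = 0.0083, and 0.025 against all 6). Bile acid genes had a median of 0.33, with 7 of 21 above and 1 below. Akr1d1, a reductase of bile acid synthesis, was at 6.57, 7.0 and 7.76 against 4.32, 4.30 and 5.40 (difference 2.44, adjusted p = 0.0081, and 0.029 against all 6), and Abcb4, which exports phospholipid into bile, differed by 2.26 (adjusted p = 0.00041, and 0.17 against all 6). The uptake carrier Slco1b2 was low, at 3.06, 3.45 and 3.26 against 5.89, 6.68 and 6.11. Hepatocyte transcription factors had 11 of 17 members above and 2 below (median 1.03), with Foxa3 at 9.08, 9.25 and 9.58 against 4.32, 5.06 and 5.29, and Hnf4a at 9.41, 9.62 and 9.53 against 7.16, 6.56 and 7.43.

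The largest increase among the named genes was that of a fetal liver gene. Afp, the fetal counterpart of albumin, was at 12.18, 11.99 and 12.16 in the Yap-off organoids and at 4.17, 3.65 and 3.96 in the Lyz2-high controls, a difference of 8.18 (SE 0.17). It was also at 12.20, 12.10 and 11.16 in the Lyz2-low controls. It splits the controls, so no p is given. Afp and Alb are neighbours on chromosome 5 and had about the same level in the Yap-off organoids, while the Lyz2-high controls held Alb alone. Gpc3, a heparan sulfate proteoglycan of fetal liver, was at 10.47, 10.22 and 10.64 against 3.37, 4.03 and 3.49, and the imprinted gene Peg3 at 9.64, 8.73 and 9.61 against 3.36, 4.18 and 3.38. Both split the controls. Their means in the Lyz2-low controls (10.66 and 10.62) were above those in the Yap-off organoids (10.44 and 9.33), so the level is not particular to the Yap-off organoids. Spink1, a secreted trypsin inhibitor, was at 9.81, 10.54 and 10.51 against 2.94, 2.85 and 2.86. It splits the controls too, with a mean of 7.51 in the Lyz2-low controls, below the Yap-off organoids. In the list of 16 fetal and imprinted genes 10 lay above without overlap and none below (median 1.25). Lin28b (2.92, 2.98, 3.03) and Cdkn1c (3.92, 4.08, 4.13) were low on all 6 arrays, with adjusted p = 0.69 and 0.7.

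The promoters of Alb and Afp are shown because both genes are near the top of the scale in the Yap-off organoids and part ways in the Lyz2-high controls. Each run is the 250 bases before the start of the gene, 5′ to 3′ on the gene's strand, from RefSeq on GRCm38.p6 (Alb at chr5:90460620-90460869 and Afp at chr5:90490464-90490713, both on the plus strand). Capitals mark GTTAAT, the core of an HNF1 site, searched with its reverse complement ATTAAC.
Alb: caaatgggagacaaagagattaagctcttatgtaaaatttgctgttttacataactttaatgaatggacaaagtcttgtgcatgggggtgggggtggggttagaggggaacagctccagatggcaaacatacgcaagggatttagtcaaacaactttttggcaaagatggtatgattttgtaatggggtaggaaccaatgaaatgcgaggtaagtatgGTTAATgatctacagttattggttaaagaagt
Afp: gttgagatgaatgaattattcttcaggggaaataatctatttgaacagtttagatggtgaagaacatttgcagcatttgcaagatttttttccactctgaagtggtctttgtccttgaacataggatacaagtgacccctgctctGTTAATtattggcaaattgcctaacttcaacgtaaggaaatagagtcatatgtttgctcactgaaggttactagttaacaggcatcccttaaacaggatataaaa
The match begins 32 bases before the start of Alb and 105 bases before that of Afp. The same letters occur in 6.4% of 32851 such windows and in 6 of the 16 plasma protein genes with an entry. A match is a description of the letters, not of binding, and it stands in both promoters.

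Several YAP target genes were higher in the Yap-off organoids than in the Lyz2-high controls, and about as high in the Lyz2-low controls. Yap1 itself was at 7.35, 7.21 and 6.88 against 4.93, 6.70 and 5.96 (difference 1.28, SE 0.43). The Yap-on organoids were at 7.45, 7.40 and 7.28, so that the Yap1 probe set did not separate Yap on from off, and the labels do not say whether it reads the switched copy. Ankrd1, a muscle-type ankyrin repeat protein and textbook target of YAP, was at 9.46, 9.13 and 9.39 against 3.46, 3.39 and 3.47 (difference 5.89, SE 0.14). Ccn2, a secreted matricellular protein, was at 10.54, 10.12 and 10.06 against 5.73, 5.74 and 5.96. Its relative Ccn1 was at 10.32, 9.67 and 10.04 against 7.78, 4.58 and 5.10, with hepatocyte 2 above the controls labelled wild-type organoid. Igfbp3, which binds insulin-like growth factors, was at 10.51, 10.59 and 10.60 against 4.80, 4.52 and 5.56.

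All of these split the controls: Ankrd1 stood at 10.07 to 10.40 and Ccn2 at 10.06 to 10.92 in the Lyz2-low controls, as high as in the Yap-off organoids. Of 22 YAP/TEAD genes measured, 12 lay above the Lyz2-high controls without overlap and 1, the receptor kinase Axl (7.98, 7.84, 7.40 against 10.28, 9.18, 9.85), lay below, with a median of 1.31. None of the 9 that do not split the controls was called. Among them Crim1 (7.24, 6.96, 7.05 against 6.21, 7.69, 6.79), Asap1 (7.56, 7.13, 7.25 against 7.56, 7.82, 7.56) and Birc5 (6.94, 6.56, 6.16 against 4.61, 6.24, 5.21) had adjusted p = 0.8, 0.24 and 0.11. The feedback kinase Lats2 was at 5.41, 5.45 and 5.52 against 5.82, 6.31 and 5.50 (adjusted p = 0.27). Against all 6 controls Gadd45b and Tgfb2 changed sign, from 1.29 to -0.59 and from 1.33 to -0.02.

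The promoters of Ankrd1 and Ccn1 are shown as the target genes with large differences that RefSeq holds with a match to the TEAD core. The windows are as above (GRCm38.p6, Ankrd1 at chr19:36119845-36120094 and Ccn1 at chr3:145649986-145650235, both on the minus strand), and capitals mark GGAATG or its reverse complement CATTCC.
Ankrd1: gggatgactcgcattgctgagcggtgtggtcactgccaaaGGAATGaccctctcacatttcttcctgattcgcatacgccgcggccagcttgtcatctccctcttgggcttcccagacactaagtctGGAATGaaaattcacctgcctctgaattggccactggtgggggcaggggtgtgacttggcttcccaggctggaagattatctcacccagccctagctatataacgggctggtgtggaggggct
Ccn1: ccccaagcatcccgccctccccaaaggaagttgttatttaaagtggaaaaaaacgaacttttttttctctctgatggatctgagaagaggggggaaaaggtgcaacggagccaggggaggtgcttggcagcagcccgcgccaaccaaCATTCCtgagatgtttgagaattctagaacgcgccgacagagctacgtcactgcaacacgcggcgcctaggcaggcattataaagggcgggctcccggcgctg
Matches begin 210 and 123 bases before the start of Ankrd1 and 103 bases before that of Ccn1. The core occurs in 12.6% of all 32851 windows, and in 7 of the 17 YAP/TEAD genes with an entry (41.2%). Igfbp3, which differed about as much as Ankrd1, is among those without these letters in the window.

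**Figure D4:**
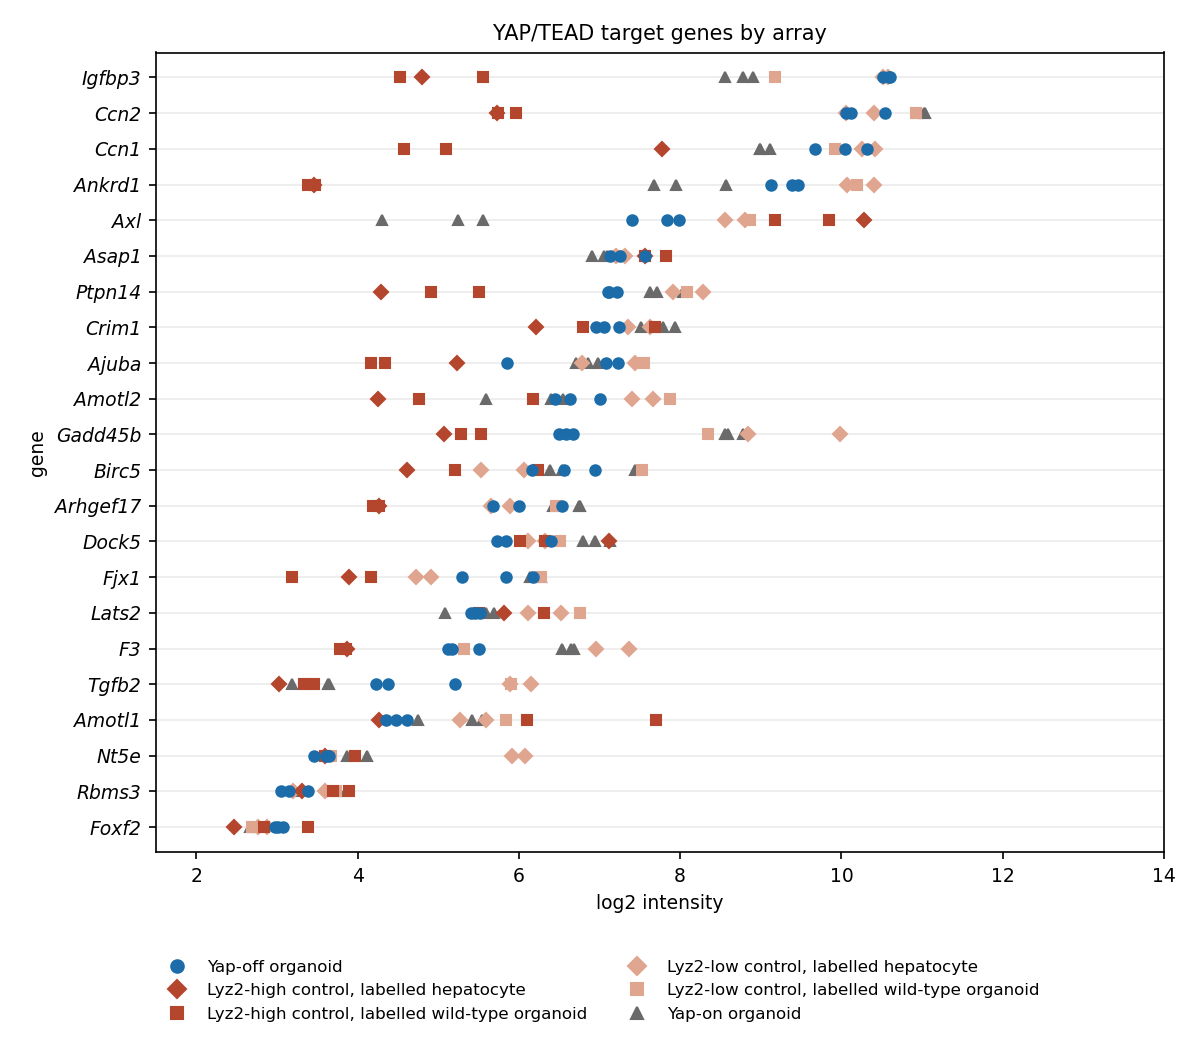
Log2 intensity (x axis) of the 22 measured YAP/TEAD target genes (y axis, ordered by their mean in the Yap-off organoids), 1 point per array: circles Yap-off organoids, triangles Yap-on organoids, dark symbols Lyz2-high and light symbols Lyz2-low controls. For Igfbp3, Ccn2, Ccn1 and Ankrd1 the dark symbols lie to the left of all others, at or below 7.78. For Igfbp3, Ccn1 and Ankrd1 the triangles lie between the dark symbols and the circles, and for Ccn2 to the right of the circles.

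Genes of the Hippo pathway itself gave calls in 1 direction only among those that do not split the controls. Of 11, 0 were called higher and 3 (27.3%) lower, against 4.90% and 3.69% of all such genes. Of 18 measured, 7 (38.9%) lay above and 4 (22.2%) below without overlap, and the median was 0.26. The kinase gene Stk4, which encodes MST1, was at 6.49, 6.09 and 5.92 against 7.45, 7.33 and 7.59 (difference -1.29, SE 0.19, adjusted p = 0.0043, and 0.026 against all 6). Taok1, a kinase that acts on MST kinases, was at 7.20, 7.05 and 7.33 against 7.99, 7.90 and 8.17 (difference -0.83, SE 0.14, adjusted p = 0.0094, and 0.038 against all 6). Mob1a, a scaffold for the LATS kinases, differed by -1.17 (adjusted p = 0.028, and -0.67 with 0.5 against all 6), a call lost without hepatocyte 2, wild-type organoid 3 or Yap-off replicate 2 (adjusted p of up to 0.08). Tead1 was at 7.96, 7.70 and 7.58 against 3.92, 5.12 and 4.37, and Tead4 at 7.91, 7.05 and 7.53 against 4.62, 5.86 and 4.92. Wwtr1, the YAP relative TAZ, overlapped at 8.08, 8.12 and 7.95 against 6.11, 8.64 and 7.0 (adjusted p = 0.44).

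Ductal keratins were above the Lyz2-high controls and below the Yap-on organoids. Krt19, a keratin of bile duct cells, was at 7.56, 7.0 and 7.18 against 4.95, 4.28 and 4.92, whereas the Lyz2-low controls lay between 9.28 and 10.21 and the Yap-on organoids between 12.01 and 12.25. Krt7 was at 7.63, 9.05 and 8.15 against 3.47, 3.70 and 3.35, and Sox9, the ductal transcription factor, at 7.54, 7.96 and 7.76 against 4.40, 5.20 and 5.30. Krt23 did not split the controls and was higher, at 6.38, 6.85 and 6.61 against 3.33, 3.34 and 3.45 (difference 3.24, SE 0.16, adjusted p = 6.2e-05, and 0.0063 against all 6). Epcam, a surface marker of duct cells, was called but low, at 4.67, 4.81 and 4.47 against 3.59, 3.65 and 3.31 (difference 1.13, adjusted p = 0.0042, and 0.75 with adjusted p = 0.39 against all 6). Cftr (2.63, 2.36, 2.44) and Prom1 (3.10, 3.60, 3.17) stayed below the median gene of the arrays, which lay between 4.14 and 4.34. Of the 9 ductal genes that do not split the controls 2 (22.2%) were called higher, against 4.90% of all such genes. In all, 17 of 23 ductal genes lay above and 1 below without overlap (median 2.15). The exception was Aqp1, a water channel of ducts and endothelium, at 3.50, 3.87 and 3.26 against 7.33, 10.79 and 9.40.

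Of 25 junction and polarity genes, 20 lay above and none below (median 2.27). Among the 12 that do not split the controls 7 (58.3%) were called higher, against 4.90% of all such genes. Gjb1, the main gap junction protein of hepatocytes, was at 9.91, 10.09 and 10.03 against 6.81, 7.28 and 6.40 (difference 3.18, SE 0.23, adjusted p = 0.00028, and 0.048 against all 6). Cldn1, a tight junction claudin, was at 8.09, 7.09 and 7.88 against 4.55, 5.05 and 4.50 (difference 2.98, SE 0.30, adjusted p = 0.00099, and 0.041 against all 6). The desmosomal cadherin Dsc2 differed by 2.40 and the gap junction gene Gjb2 by 2.27 (adjusted p = 0.00029 and 0.0012, and 0.07 and 0.24 against all 6). Cdh1, or E-cadherin, splits the controls, at 9.62, 9.80 and 9.62 against 4.73, 5.85 and 5.76. Jup, or plakoglobin, overlapped at 8.95, 8.33 and 8.10 against 9.12, 8.57 and 8.33 (adjusted p = 0.71). Of 22 basement membrane and integrin genes 10 lay above and 1 below (median 0.42). Itga3, a laminin-binding integrin chain, was at 10.19, 9.90 and 9.96 against 3.67, 3.59 and 3.31, and Itgb4 differed by 1.25 (adjusted p = 0.0076, and 0.26 against all 6). Vim, the mesenchymal intermediate filament, overlapped at 10.13, 9.88 and 9.54 against 9.69, 9.91 and 9.93 (difference 0.01, unadjusted 95% interval -0.44 to 0.45).

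Genes of cholesterol synthesis and uptake were mostly higher than in the Lyz2-high controls. Their median level was 8.08, 7.92 and 8.32 in the Yap-off organoids. It was 7.39 to 8.20 in the Lyz2-low controls and 8.58 to 8.68 in the Yap-on organoids, so the level is not particular to the Yap-off organoids. Of 16 measured, 15 lay above the controls without overlap and none below (median 2.05). Among the 7 that do not split the controls 6 (85.7%) were called higher, against 4.90% of all such genes. Against all 6 controls 1 of the 16 was called. Dhcr7, which makes cholesterol in its last step, was at 8.54, 8.73 and 8.66 against 6.73, 6.54 and 5.92 (difference 2.25, SE 0.23, adjusted p = 0.001, and 0.044 against all 6). Sqle, a rate-limiting squalene oxidase, splits the controls, at 8.57, 8.31 and 8.79 against 4.42, 4.98 and 4.03. For Mvk, Mvd, Hmgcs1, Idi1 and Sc5d the call was lost with at least 3 of the 6 arrays left out in turn (highest adjusted p between 0.077 and 0.13), so that Dhcr7 alone kept it. Of 21 genes of fatty acid synthesis and storage, 14 lay above and 1 below (median 1.06). Fasn, the fatty acid synthase, was at 7.90, 7.65 and 8.30 against 6.19, 5.62 and 6.14 (difference 1.97, SE 0.24, adjusted p = 0.0021, and 0.13 against all 6), and the desaturase Fads2 differed by 2.51 (adjusted p = 0.0081, and 0.13 against all 6). Genes of fatty acid oxidation had a median of 0.37, with 7 of 18 above and none below, and none of the 9 that do not split the controls was called.

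Most macrophage transcripts were low in the Yap-off organoids. Of 25 macrophage genes, 24 lay below the Lyz2-high controls without overlap, against 15% of all genes, with a median difference of -6.67. Their summed linear intensity was 890, 1080 and 1130 in the Yap-off organoids and 52500, 29400 and 43600 in the controls. The rule chose arrays by Lyz2, so these values describe the choice. The Kupffer cell lectin Clec4f was at 3.49, 3.76 and 3.72 against 10.65, 10.24 and 10.97, the secreted scavenger protein Cd5l at 2.76, 2.91 and 2.85 against 11.29, 10.32 and 10.99, and the surface marker Adgre1 (F4/80) at 2.85, 3.01 and 2.99 against 10.48, 9.51 and 10.63. In total 15 of the 25 lay below the median gene on all 3 Yap-off arrays. Mpeg1 did not, at 5.86, 6.66 and 6.84 against 10.58, 9.46 and 10.40, and its highest value in the Lyz2-low controls was 5.40. Cd14, the lipopolysaccharide coreceptor, was the gene that overlapped the controls, at 9.01, 9.03 and 9.22 against 10.53, 7.91 and 9.83 (difference -0.34, unadjusted 95% interval -1.83 to 1.16, adjusted p = 0.79). In such mixed samples, fewer cells of a type and less RNA per cell cannot be told apart.

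Endothelial genes followed, with 21 of 22 below without overlap, against 15% of all genes (median -5.06), and 18 under the median gene in all Yap-off organoids. The median level of the list was 3.50, 3.55 and 3.59 in the Yap-off organoids. It was 3.24 to 3.56 in the Lyz2-low controls and 3.27 to 3.38 in the Yap-on organoids, so the low level is not particular to the Yap-off organoids. Cdh5, the cadherin of endothelial junctions, was at 3.21, 3.45 and 3.46 against 10.56, 10.67 and 10.56. The summed intensity of the list was 297, 294 and 285 in the Yap-off organoids against 4810, 23600 and 13400. Genes of MHC class II presentation had 14 of 16 below (median -3.98), with H2-Aa at 2.71, 3.06 and 2.85 against 11.60, 10.91 and 11.15. The neutrophil and monocyte list had 12 of 14 below (median -2.55) and Fn1, fibronectin, above. Hepatocytes make fibronectin too, and it was at 11.59, 11.36 and 11.60 against 9.09, 8.80 and 7.42. Interferon response genes had 12 of 14 below and none above (median -2.65), with Irf7 at 3.46, 4.54 and 3.40 against 9.31, 7.74 and 8.46. Among 5 red cell genes 1 lay below (median -0.38). Most members of the endothelial (20 of 22), MHC class II (14 of 16), neutrophil and monocyte (11 of 14) and interferon (10 of 14) lists split the controls. Their counts thus largely repeat the choice of arrays. Of the members that do not split the controls, 0 of 2, 0 of 2, 1 of 3 and 1 of 4 were called lower, in the same order.

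The Lyz2-high controls were not alike, and the single array labelled hepatocyte stood apart from the others. T, B and NK cell genes summed to 4780 and 4340 in wild-type organoid 1 and 3, but to 470 in hepatocyte 2 and 169, 179 and 190 in the Yap-off organoids. Nkg7, a granule protein of cytotoxic lymphocytes, was at 3.99 in hepatocyte 2 and at 9.95 and 9.70 in the others, against 3.13, 3.11 and 3.02 in the Yap-off organoids. Cd3g, a chain of the T cell receptor complex, was at 2.99 against 8.05 and 7.65, with the Yap-off organoids at 2.92, 3.01 and 2.96. The lymphocyte list as a whole had 7 of 17 genes below without overlap (median -1.83), and none of the 6 that do not split the controls was called. Sinusoidal endothelial genes were also lower in hepatocyte 2, as Stab2 (7.61 against 10.94 and 10.11) and Kdr (5.93 against 9.71 and 8.74) show. In all, 152 genes were at least 4-fold higher in both wild-type organoid arrays than in hepatocyte 2, and 64 at least 4-fold lower.

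Some acute phase and myeloid genes were higher in hepatocyte 2, and others were not. The neutrophil and monocyte gene S100a8 was at 11.70, 11.23 and 11.26 and S100a9 at 11.59, 11.22 and 11.61 in the 3 controls. Saa2, a serum amyloid induced by inflammation, was at 10.58 in hepatocyte 2, at 3.42 and 3.59 in the controls labelled wild-type organoid, and between them in the Yap-off organoids, at 5.55, 5.15 and 5.08. Saa1 ran likewise, at 9.97 against 4.13 and 4.26, with 5.84, 7.71 and 7.76 in the Yap-off organoids. Itgam, the integrin CD11b, was at 9.09 against 5.65 and 6.90, and Il6 at 5.92 against 2.60 and 3.19. For Saa1 and Saa2, the Yap-off organoids were thus below one control and above the others. Of the 20 genes of this list 6 lay above and 4 below all 3 controls (median 0.94). Crp, the C-reactive protein, was above all, at 9.09, 9.44 and 9.51 against 6.39, 6.93 and 6.36 (difference 2.78, SE 0.21, adjusted p = 0.00032, and 0.018 against all 6). Lcn2, lipocalin 2, was at 12.13, 12.28 and 12.26 against 10.52, 6.61 and 7.17. Ccl2, a monocyte chemokine, differed by 3.21 (adjusted p = 0.022, and 0.31 against all 6), a call lost without Yap-off replicate 1 or 3 or either wild-type organoid (adjusted p of up to 0.087). The hormone Hamp was uneven among the controls, at 10.79, 2.90 and 8.31 against 10.73, 10.65 and 9.09.

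**Figure D5:**
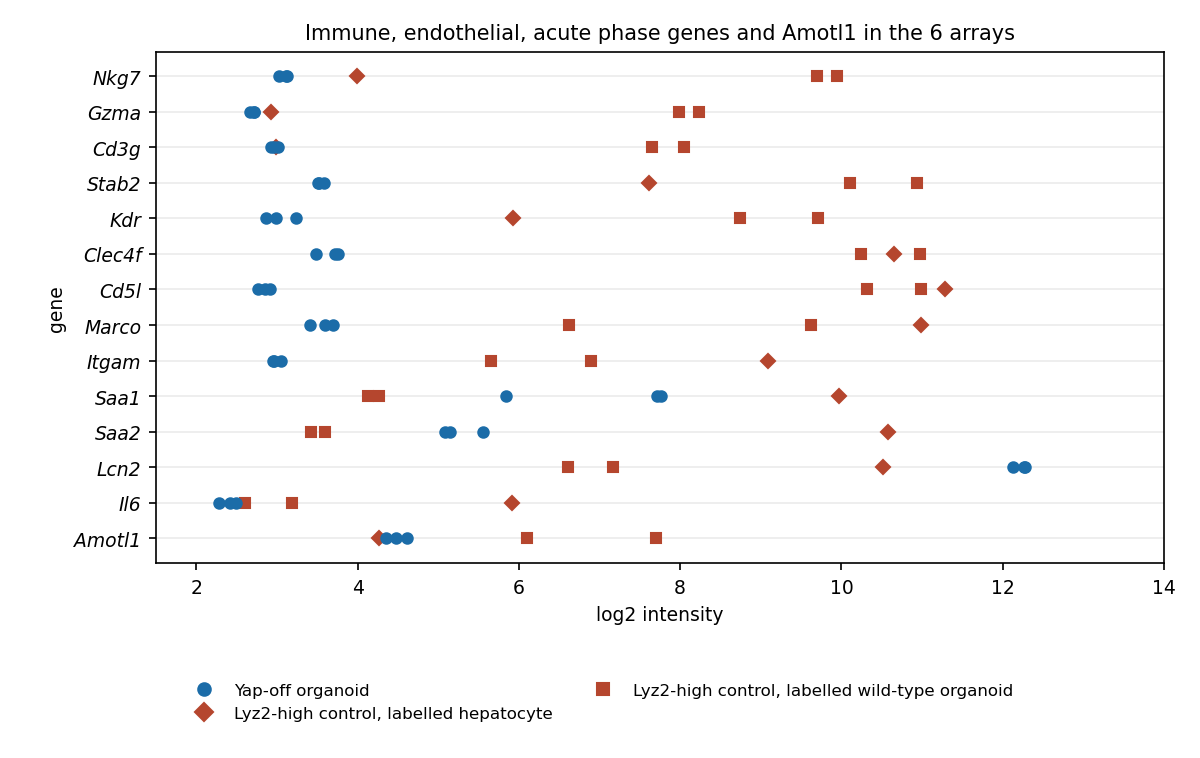
Log2 intensity (x axis) of 14 genes (immune, endothelial and acute phase genes and Amotl1, y axis) on the 6 arrays: circles Yap-off organoids, diamonds the control labelled hepatocyte 2, squares the controls labelled wild-type organoid 1 and 3. The diamond sits close to the circles for Nkg7, Gzma and Cd3g and apart from the squares for Saa1, Saa2 and Il6.

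Genes of secretory stress were moderately higher. Of 20 genes of the unfolded protein response, 11 lay above and none below without overlap (median 0.67). Xbp1, the factor that expands the secretory apparatus, was at 8.84, 9.17 and 9.04 against 8.31, 7.97 and 7.90 (difference 0.96, SE 0.17, adjusted p = 0.01, and 0.029 against all 6), and Pdia4, a disulfide isomerase, differed by 0.89 (adjusted p = 0.0081, and 0.072 against all 6). The chaperone genes Hspa5 and Calr differed by 0.50 and 0.09 (adjusted p = 0.076 and 0.73). Asns, asparagine synthetase, splits the controls, at 7.83, 8.93 and 9.01 against 3.20, 4.32 and 3.12. NRF2 genes had 9 of 16 above and 2 below (median 1.20), and 9 of the 16 split the controls. The cystine carrier Slc7a11, which splits them, was at 9.10, 8.09 and 8.44 against 2.94, 3.24 and 3.23. Of the 7 that do not split the controls, 1 (14.3%) was called higher and 2 (28.6%) lower, against 4.90% and 3.69% of all such genes. The higher one was Nqo1, differing by 1.05 (adjusted p = 0.0081, and 0.69 with adjusted p = 0.29 against all 6). Hmox1, described above (difference -3.50), was among the lower ones. Targets of p53 had 8 of 13 above and 1 below (median 1.42), and all called ones split the controls. Sesn1 was the one below, at 3.90, 5.28 and 5.13 against 7.49, 7.55 and 7.70.

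Of 26 cell cycle genes, 6 (23.1%) lay above without overlap, near the 20.8% of all genes, and 1 below (median 0.40). Among the 23 that do not split the controls 4 (17.4%) were called higher, against 4.90% of all such genes. For Tyms, Aurka and Cdc20 the call was lost without at least 1 array (highest adjusted p between 0.05 and 0.12 in limma), so that Ccne1 alone kept it. Against all 6 controls 0 of the 26 were called. Mki67, a marker of cycling cells, was at 4.75, 4.65 and 4.86 against 4.35, 5.88 and 4.45 (difference -0.14, unadjusted 95% interval -1.11 to 0.83). Ccne1, cyclin E1, was higher, at 5.89, 6.32 and 5.32 against 4.0, 4.34 and 3.71 (difference 1.82, SE 0.29, adjusted p = 0.0065, and 0.23 against all 6). Ccnd1, cyclin D1, splits the controls, at 10.78, 10.59 and 10.28 against 8.60, 9.08 and 8.37. Glycolysis and hypoxia genes had 9 of 19 above and 3 below (median 0.50), and Bnip3, a mitophagy receptor, differed by 2.11 (adjusted p = 0.0064). Bnip3 stood at 11.02 in both hepatocyte 1 and 3, above every Yap-off array, and against all 6 its difference was 0.65 (adjusted p = 0.86). With all 12 arrays in the fit its adjusted p was 0.1. Vegfa, which splits the controls, changed sign against all 6, from 1.40 to -0.22.

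Signalling lists had medians near that of all genes, apart from the Wnt list. Wnt response genes had 6 of 15 above and none below (median 0.57), with Axin2, the feedback inhibitor of the pathway, at 5.13, 5.26 and 5.27 against 4.38, 5.05 and 4.41 (adjusted p = 0.1). Notch genes had 4 of 18 (22.2%) above and 6 (33.3%) below (median 0.09), and none of the 12 that do not split the controls was called. The ligand Jag1 was at 7.51, 6.64 and 6.74 against 3.68, 4.38 and 4.03. TGF-beta and BMP genes had 6 of 19 (31.6%) above and 5 (26.3%) below (median 0.14). Bambi, a decoy receptor, was at 7.13, 7.64 and 6.34 against 4.80, 4.88 and 4.24 (difference 2.39, SE 0.35, adjusted p = 0.0049, and 0.037 against all 6), and Smad6, an inhibitor of BMP signals, differed by -0.97 (adjusted p = 0.0046, and 0.32 against all 6). Of 20 immediate early genes 7 (35%) lay above and 5 (25%) below (median -0.25). Egr1, a zinc finger factor that answers growth factors, was at 9.58 on all 3 Yap-off arrays against 6.45, 6.15 and 6.85, and it splits the controls, as does the flow-responsive Klf2 at 3.83, 4.14 and 4.37 against 8.91, 7.13 and 6.61. Among 22 gastric and intestinal genes 3 (13.6%) lay above and 5 (22.7%) below (median 0.02), and of the 20 that do not split the controls Tff3 and, by 1.35, the claudin gene Cldn18 were called higher (adjusted p = 8.8e-06 and 0.039, and 9.5e-05 and 0.11 against all 6). Ctse, the aspartic protease cathepsin E, was called lower by a narrow margin, at 4.07, 3.68 and 3.60 against 4.39, 4.30 and 4.59 (difference -0.64, adjusted p = 0.05 after rounding). Against all 6 it was at -0.18 (adjusted p = 0.84), and the call was lost without any 1 of the 6 arrays other than Yap-off replicate 1 (adjusted p of up to 0.16). The call of Cldn18 was lost without either wild-type organoid or Yap-off replicate 2 or 3 (adjusted p of up to 0.12).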

How the data were processed

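The 12 total RNA samples were amplified (Nugen Pico WT) and read on MoGene 1.0 ST chips (Affymetrix), per the labels' protocols. The deposited values are linear intensities, for which RMA is named per the submitters' processing notes with no version; their normalization is otherwise not given in the sources used here. Log2 was taken. Of 34760 array rows, 21640 named 1 gene in the platform annotation; 11799 without an entry and 1321 naming several genes were left out. For 954 genes the row with the highest mean was kept, giving 19937 genes, with no filter on low values. No 2 arrays were identical. Median intensities per array lay between 13.56 and 15.58.

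The 6 arrays were fitted by lmFit and eBayes of limma 3.58.1 under R 4.3.3 (4 residual and 2.55 prior degrees of freedom), with Benjamini-Hochberg adjustment over all genes and calls under 0.05. Since the control arrays were chosen by a measured value and carry mixed labels, p-values describe these arrays. With 3 against 3, a permutation test cannot go below a two-sided p of 0.1, so none was used, and the number of arrays limits the precision. Differences are Yap-off minus control on the log2 scale, with limma's standard error. On simulated data for this comparison (19937 genes, 100 changed genes per size), 40% of changes of 1 and 73% of changes of 2 (log2) were recovered, and 15% of calls were false. Far fewer genes were changed there than were called in the data (18.8%), so these rates need not hold for the calls given here.

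Members and the 36 gene lists were chosen with earlier results of these data known. Genes were named by rule: Lyz2, Cyp2e1 and Yap1; the 15 genes each way with the largest difference among called genes without overlap that do not split the controls; the 10 each way among those that split them; up to 4 members of each list; and all YAP/TEAD, macrophage and sex-linked members. Further list members are described as examples chosen after their values were seen. Same-numbered arrays did not deviate together (r = 0.002, 0.048 and 0.051), so replicate numbers were not taken as pairs. Promoters are RefSeq entries; Ccn2 and Tff3 are named only. Figures were drawn with matplotlib 3.10.9.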

Additional observations from a re-analysis of the deposited data

Results flagged for a closer look

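Amotl1, a member of the angiomotin family that binds YAP, was lower than in the controls labelled wild-type organoid and close to the control labelled hepatocyte 2. The 3 Yap-off organoids, at 4.61, 4.47 and 4.35, all lay below the controls labelled wild-type organoid 1 and 3, at 7.70 and 6.10, and all lay above the control labelled hepatocyte 2, at 4.26. The difference was -2.42 against the former and 0.22 against the latter. The gap between these differences was not tested. The label with 1 array has no spread of its own, and its value is near the median gene of that array, 4.21. Over the 6 arrays limma did not call Amotl1 (difference -1.54, SE 0.79, adjusted p = 0.25).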

How the results depend on the processing

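All 12 arrays in the fit gave 2232 called genes among those that do not split the controls, an adjusted p under 0.01 gave 1948 in all and 418 that do not split them, and a 2-fold minimum left 773 of the latter. With all 6 control-labelled arrays as the control, 183 and 173 genes were called, where 2565 had an unadjusted p under 0.05. Leaving out each array in turn gave 2465 to 4639 calls in all and 684 to 2012 that do not split the controls, the lowest without Yap-off replicate 3 and the highest without hepatocyte 2. Yap-off replicate 2 left out gave 2479 and 688, and wild-type organoid 3 left out gave 715 of the second kind. Of 124 called list members and named genes that do not split the controls, 49 lost the call without at least 1 array. Against all 6 controls the differences of Tgfb2 (-0.02, almost none), Gadd45b (-0.59) and Vegfa (-0.22) changed sign. Each splits the controls, and the 6 include the Lyz2-low arrays. Their means there (5.98, 9.05 and 9.12) lie above those in the Yap-off organoids (4.61, 6.58 and 7.28). Why the Lyz2-low arrays are higher was not tested. The replicate number as a block gave 3441 and 1166 calls. Of the 124, 105 were called under it (not Fgb, Ccl2, Mvk and Sc5d, among others) and 109 with all 12 arrays in the fit. Renewed quantile normalization, median centring, averaging a gene's rows, leaving out dim genes, the intensity trend and array weights kept both counts within 1.5 times. The deposited values carry no background or detection call, so genes below the median of each array, 4.14 to 4.34, may hold little signal.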
